A study of Mus musculus with 8 samples.

Results

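Circular RNAs whose annotated junction ends enclose 10 or more exons were examined in hearts of male wild-type mice, 8 weeks after a sham operation or transverse aortic constriction (TAC), a surgical narrowing of the aorta that loads the left ventricle with pressure. There were 4 sham and 4 TAC animals, with 1 heart library each. Strain, age and the part of the heart were not given in the sources used here. The rule was that a row of the deposited table had the type circRNA, which stands for circles made of exons, and an exon number of 10 or more. It was met by 1777 of 26065 exonic circles (6.82%), from 910 of 6189 host genes (14.7%). These circles carried 5536 of 251337 exonic back-spliced reads (2.20%). The exon number was not read from the circles. The deposited table counts only reads across the back-splice junction, and the number counts the annotated exons between its ends, so exons skipped inside a circle would not show.

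A circular RNA forms when the splicing machinery joins the end of a later exon backward to the start of an earlier one. The product is covalently closed, lacks a cap and a poly(A) tail, and resists exonucleases, so it can outlast the linear transcript of its host. Most exonic circles hold a few exons, and the heart is known for circles from long muscle genes such as Ttn, which encodes the giant sarcomere spring titin, and Ryr2, which encodes the channel that releases calcium from the sarcoplasmic reticulum. Pressure overload thickens the ventricle and can lead to failure.

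The junctions of the 6 most abundant circles and of the circle with the most exons are shown because the deposited reads of a circle are those across its junction. The sequences come from GENCODE M21 transcripts on mm10, run 5′ to 3′ on the transcript strand, and join the last 15 bases of the last exon (lower case) to the first 15 bases of the first exon (capitals).
Ttn exons 85 to 118, chr2:76857904-76881839, minus strand: cccctccagctaaagAACCCCCCAGGTTCA
Ttn exons 84 to 118, chr2:76857904-76884197, minus strand: cccctccagctaaagAACATGAAGTGCCTC
Ttc3 exons 2 to 11, chr16:94383912-94403368, plus strand: aacacctggccaaagGACTGTGCAGCATGG
Dysf exons 31 to 40, chr6:84129471-84152409, plus strand: ctcattcctgtccagGGCGGCATGGTGGAT
Nsmaf exons 20 to 30, chr4:6398319-6417207, minus strand: ttcagggccacactgTGTTTCATCCCCTGA
Snx13 exons 4 to 15, chr12:35085939-35107556, plus strand: atgatggggatggagTGCTTAGAAGAAATG
Ttn exons 118 to 256, chr2:76763236-76857987, minus strand: caaaagaacagctatTCCCAGAGGCTCCAA
The first 2 Ttn junctions share their lower-case side, the end of exon 118, and differ only in the exon to which it was joined. Exon numbers here are ranks in the matched GENCODE transcript, which for Ttn has 312 exons.

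The libraries differed widely in depth, and 2 stood apart. Exonic back-spliced reads numbered 40279, 3926, 17738 and 99291 in sham replicates 1 to 4, and 32635, 1100, 20843 and 35525 in TAC replicates 1 to 4. Levels are given as normalised reads, the reads divided by a size factor per library. In sham replicate 2 a single read therefore equals a level of 4.54, and in TAC replicate 2 a level of 5.77, against 0.195 in the deepest library, sham replicate 4. A circle at 0 in a library could still hold a level of up to 13.6 in sham replicate 2 and 17.3 in TAC replicate 2, by the limit of 3 reads that a count of 0 allows. Intervals and such limits cover counting error only. The labelled tissue was checked by the circles of marker genes. All 12 cardiomyocyte markers gave circles, with a summed level of 209.5 to 854 in sham and 306 to 1746 in TAC libraries. Of 10 fibroblast markers 5 gave circles, summing to 0 to 2.48 in sham and 0 to 3.82 in TAC. Col1a1, Col1a2, Fn1, Postn and Tcf21 were at 0 in every library. Circles of other cell types were present too. All 10 endothelial markers gave circles, summing to 27.33 to 49.97 in sham and 5.774 to 63.6 in TAC. Leukocyte markers summed to 14.41 to 28.6 in sham and 11.55 to 40.07 in TAC. Smooth muscle and pericyte markers summed to 8.28 to 22.71 and 12.35 to 28.87. Adipocyte, Schwann cell and neuron, and erythroid markers reached at most 9.086 in any library. These are circle levels and not the level of the hosts' linear transcripts. In heart tissue, fewer cells of a type and less RNA per cell cannot be told apart.

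Most circles of the class lay just above its limit. Between 10 and 14 exons were held by 1350 of the 1777 circles (76.0%), exactly 10 by 461, and 20 or more by 169. The median was 12 exons, and the maximum 139. Across the limit the values ran on without a break. The 684 circles of 9 exons had 2601 reads and a median span of 22498 bases, the 461 of 10 exons had 1701 reads and 24528 bases, and 71.4% and 73.1% of them were seen in a single library.

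The circles covered long stretches of their genes. Their genomic span had a median of 30028 bases and ranged from 2066 to 620859 bases, against a median of 7667 bases for the 24288 circles of 1 to 9 exons. Spans over 100 kb were found in 120 circles (6.75%) and in 1.13% of the shorter class. The widest was a Dmd circle of exons 13 to 47, from the gene of dystrophin, the protein that ties the muscle membrane to the cytoskeleton. It had 1 read, in TAC replicate 4. A Dmd circle of exons 48 to 57 spanned 408693 bases with 10 exons, and the Rabgap1l circle of exons 2 to 19 spanned 398896 bases. The next in width were the Csmd1 circle of exons 6 to 25, at 344329 bases, and the Dmd circle of exons 46 to 55, at 337428 bases. Of these 5, only the last had more than 1 read, with 2.

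**Figure D1:**
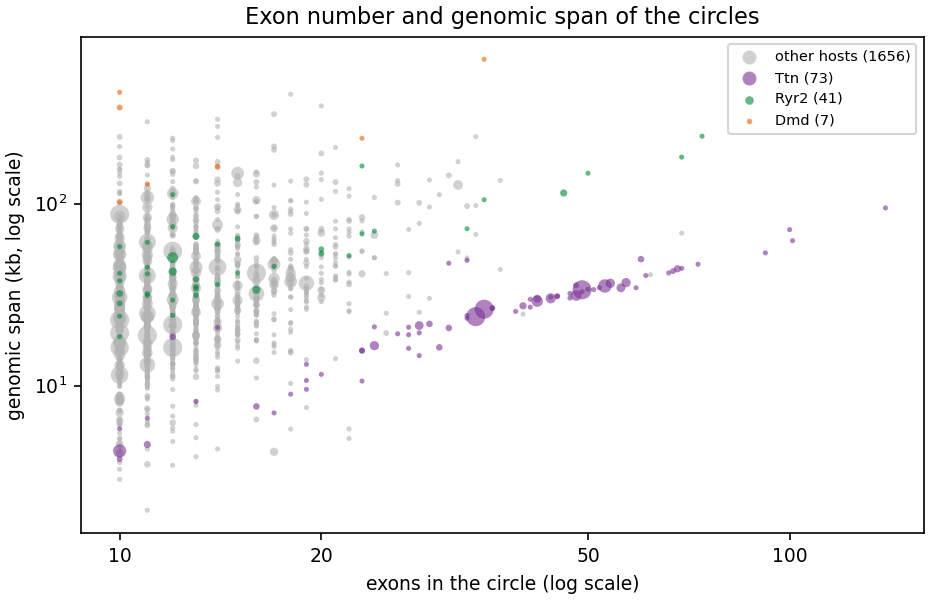
Exon number (x axis, log scale) and genomic span in kb (y axis, log scale) of all 1777 circles, with point area growing with the total number of reads up to 40. The 73 Ttn circles form a narrow band of many exons in short spans, and a Dmd circle spans 620859 bases.

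The exons of a circle add up to its spliced length where none is skipped. Among the 1767 circles whose ends matched exon borders of 1 annotated transcript, this length had a median of 1530 nt, from 438 to 28803 nt, against 477 nt for the shorter class. It exceeded 1000 nt in 92.0% of the circles and in 9.17% of the shorter ones, a difference the exon rule itself brings. Measures that do not follow from the exon number were closer. The median mean exon length was 125.5 nt against 129 nt. The flanking introns had medians of 5826 bases upstream and 4232 bases downstream, against 5263 and 4157 bases. The first exon of the circle was exon 2 of the transcript in 24.6% and 22.9%, and 87.5% and 88.3% lay wholly in coding sequence. An annotated start codon was inside 208 circles (11.8%), against 10.2%. No test was run on these descriptions.

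The ends of these circles were often used by other circles too. The acceptor, the start of the first exon, was shared with at least 1 other circle in 1266 circles (71.2%), against 50.5% in the shorter class. For the donor, the end of the last exon, this held for 1110 (62.5%) against 45.9%. Both ends occurred among the circles of 1 to 9 exons in 744 of the 1777. The Ttn circles illustrate ends shared among long circles, since 4 of them combine starts at exons 84 and 85 with ends at exons 118 and 132.

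Few host genes supplied many of the circles. Of the 910 hosts, 548 (60.2%) had 1 such circle, 309 had 2 to 4 and 53 had 5 or more. Ttn led with 73 circles and 969 reads, 17.5% of all reads of the class. Ryr2 followed with 41 circles and 77 reads. Then came Dysf, Asph and Clasp1 with 13 circles each. Dysf encodes dysferlin, which reseals the muscle membrane, Asph encodes an aspartyl hydroxylase and, from the same locus, junctin of the calcium release complex, and Clasp1 encodes a protein of growing microtubule ends. Lama2, a laminin chain of the muscle basement membrane, and Cacna1c, the pore of the L-type calcium channel, had 11 each. Agtpbp1, a tubulin deglutamylase, Vwa8, and Utrn, the dystrophin relative utrophin, had 10 each.

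Long circles were usually a minor product of their host. In the median host they took 7.69% of the reads of all its circles, and 1 of them was the host's leading circle in 153 cases. In 71 hosts they took over 50% of the reads, and 44 hosts had no shorter circle. Nsmaf, a BEACH domain protein of sphingomyelinase signalling, had 107 of its 119 circle reads (89.9%) in its single long circle. The share was 66.7% for Armc8, a subunit of the CTLH ubiquitin ligase, 64.6% for Tns1, the focal adhesion protein tensin, 54.1% for Ttn and 50.8% for the sorting nexin gene Snx13. In contrast it was 3.70% for Ryr2 and 1.06% for Asph.

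Individual circles recurred little across animals. A single library held 1364 of the 1777 (76.8%), against 59.0% in the shorter class, and 1161 (65.3%) rested on a single read, against 43.8%. Only 85 (4.78%) were found in 4 or more libraries, against 14.9%. The 2 found in all 8 libraries were the Ttn circles of exons 85 to 118 and 84 to 118. Circles were also compared at like read totals. With 2 to 3 reads, 51.6% of the 372 long and 53.6% of the 5505 shorter circles occurred in at least 2 libraries, and with 4 to 6 reads the shares were 89.6% and 80.4%. With 7 to 12 reads they were 85.9% and 77.1%.

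**Figure D2:**
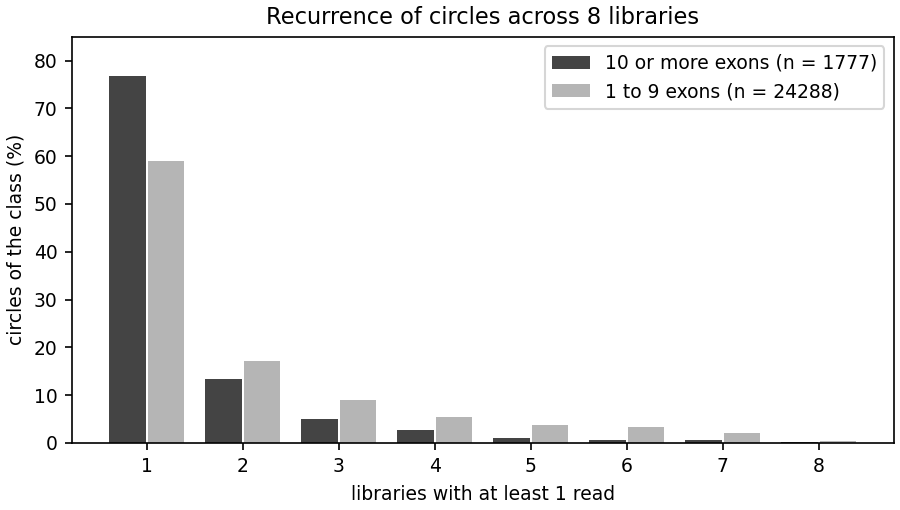
Percent of circles (y axis) by the number of libraries with at least 1 read (x axis), for 1777 circles of 10 or more exons and 24288 of 1 to 9 exons. A single library held 76.8% of the long and 59.0% of the shorter circles, and the bars for 4 or more libraries are lower for the long class.

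The circles were found mostly in TAC libraries. TAC libraries alone held 1405 (79.1%), sham libraries alone 169 (9.51%) and both groups 203. In the shorter class the shares were 45.0% for TAC alone and 25.3% for sham alone. Distinct long circles numbered 180, 117, 88 and 72 in sham replicates 1 to 4, and 860, 22, 500 and 681 in TAC replicates 1 to 4. Sham replicate 4, the deepest library, had fewer than the much shallower sham replicate 2. Circles seen in no other library numbered 543, 252 and 405 in TAC replicates 1, 3 and 4, 20 to 75 in the sham libraries and 5 in TAC replicate 2.

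As a share of exonic back-spliced reads, the long circles lay near 1% in 3 sham hearts and near 4 to 5% in all TAC hearts, and 1 sham heart was above them all. The values were 1.13%, 6.06%, 1.003% and 0.747% in sham replicates 1 to 4, and 4.995%, 4.55%, 4.18% and 3.86% in TAC replicates 1 to 4. The 95% Wilson interval was 5.36 to 6.85% in sham replicate 2 and 3.47 to 5.94% in TAC replicate 2. Group means were 2.24% ± 2.56 (SD, n = 4) in sham and 4.40% ± 0.489 (SD, n = 4) in TAC. The groups overlapped, and the difference of 2.16 percentage points did not exceed the spread between animals (exact two-sided permutation test, p = 0.143, adjusted p = 0.143 over 3 measures). The overlap came from sham replicate 2. Without it the sham mean was 0.961% ± 0.196 (SD, n = 3) and the exact p was 0.0571, the smallest that 3 against 4 allow. Without both libraries under 5000 reads the means were 0.961% and 4.34% and the exact p was 0.1, the smallest for 3 against 3.

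**Figure D3:**
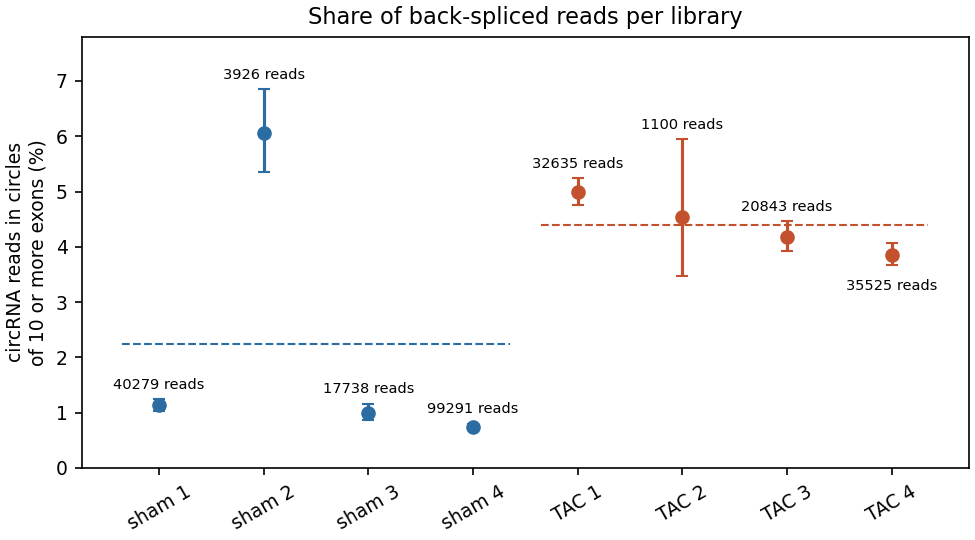
Percent of exonic back-spliced reads in circles of 10 or more exons (y axis) in each library, with 95% Wilson intervals, group means as dashed lines and the library's exonic back-spliced reads beside each point. The 4 TAC libraries lie between 3.86% and 4.995%, sham replicate 2 is above them at 6.06%, and the other sham libraries are at 0.747 to 1.13%.

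Measures at equal depth, within hosts and without Ttn also placed sham replicate 2 with the TAC libraries. In equal samples of 1100 reads, the expected number of distinct long circles was 10.3, 46.8, 9.94 and 7.24 in sham replicates 1 to 4, and 48.5, 22, 40.2 and 36.7 in TAC replicates 1 to 4 (exact permutation p = 0.114). Among all circle reads of the 910 hosts, long circles took 3.06%, 15.9%, 2.77% and 2.05% in sham, and 13.4%, 12.5%, 11.6% and 10.2% in TAC (exact permutation p = 0.143). With circles of Ttn left out, the share of reads was 0.838%, 4.97%, 0.820% and 0.613% in sham and 4.38%, 2.79%, 3.46% and 3.24% in TAC. In each of these, sham replicate 2 lay among or above the TAC libraries. Its position held whether reads, distinct circles or shares within hosts were counted. The part of depth in it, and whether the library fits its label, were not tested, so the sham mean and each overlap that rests on this library carry that limit.

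Circles of other sizes also took unequal shares. Circles of 1 exon had 3.86 to 6.55% of the reads in sham and 7.22 to 9.61% in TAC, and those of 3 to 4 exons 41.0 to 51.2% and 37.96 to 40.7%. In both the groups did not overlap, with an exact permutation p of 0.0286, and an adjusted p of 0.114 over 8 size classes. The classes of 10 to 14, 15 to 19 and 20 or more exons had exact permutation p of 0.143, 0.314 and 0.371. In the 6 libraries over 5000 reads, the ratio of the TAC to the sham mean was 2.15 for 1 exon, 0.629 for 2, 0.808 for 3 to 4, 1.34 for 5 to 6 and 2.78 for 7 to 9. It was 4.81 for 10 to 14, 5.91 for 15 to 19 and 3.26 for 20 or more exons. Spliced length moved with this. Among reads of circles over 1000 nt, those of 10 or more exons took 34.6%, 37.3%, 35% and 27.8% in sham and 27.3%, 51.0%, 29.2% and 31.4% in TAC (exact permutation p = 0.943). Circles over 1500 nt with fewer than 10 exons themselves took 0.377 to 3.62% of reads in sham and 2.84 to 5.83% in TAC.

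**Figure D4:**
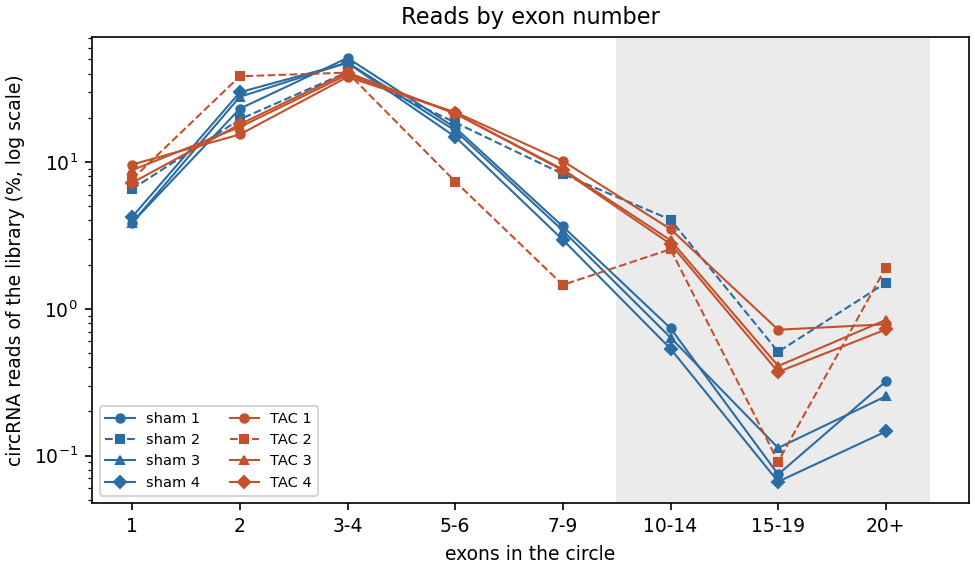
Percent of exonic back-spliced reads (y axis, log scale) by number of exons in the circle (x axis), 1 line per library, with dashes for the 2 libraries under 5000 reads and grey over 10 or more exons. Sham replicates 1, 3 and 4 fall below the TAC libraries over 5000 reads from 5 to 6 exons on, and sham replicate 2 lies close to or above those TAC libraries from 10 to 14 exons on.

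For single circles, no long circle passed the main test between TAC and sham. limma, fitted on log2(normalised reads + 0.195) over 3735 circles present in at least 4 libraries, called 0 of 85 long circles at an adjusted p of 0.05, and 1 of all circles tested (0.0268%). At an unadjusted p under 0.05 there were 9 of the 85 long circles, all with higher fitted means in TAC, against 152 of the 3735 circles tested. The fitted log2 difference was positive for 73 and negative for 12, with a median of 1.40, against 0.15 over all circles tested. A filter on presence favours circles high in the group that carries more of them, so nothing is read from these counts. Sham replicate 2 was at 0 for 47 of the 85 and TAC replicate 2 for 73. Without these libraries limma called 11 of 65, all higher in TAC, where 8.13% of all circles tested were called higher.

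edgeR's quasi-likelihood test on the whole reads recovered from the values tested 717 circles with enough reads, and called 53 of them (7.39%) higher in TAC. It tested 12 long circles and called 5 of these higher and 0 lower. The 4 described here are from Armc8, Fam193a, Dysf and Insr. At an unadjusted p under 0.05 it had 7, all higher, against 204 of the 717 circles tested. The edgeR filter on reads likewise favours circles high in the group that carries more of them. Of the 12 long circles, 7 had reads in every TAC library, so nothing is read from the direction of these counts. DESeq2 called 1 long circle and none of these 4, where 0.084% of all circles tested were called.

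The Armc8 circle of exons 3 to 18 was found in 3 of 4 TAC hearts. Its levels were 0, 9.09, 0.828 and 0 in sham replicates 1 to 4, and 16.4, 0, 6.18 and 6.36 in TAC replicates 1 to 4. The groups overlapped, since sham replicate 2 held 2 reads and TAC replicate 2 none, and 0 reads in the latter allows a level above those of the other TAC libraries. The log2 difference was 3.72 ± 1.04 (SE), with an adjusted p of 0.0125 by edgeR. That call held in 3 of 8 fits with a library left out and ended without sham replicate 1 or 4 or TAC replicate 1, 3 or 4, with adjusted p up to 0.176.

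The Fam193a circle of 11 exons had levels of 0.379, 0, 0.828 and 0 in sham and 6.69, 5.77, 6.18 and 7.63 in TAC. These values did not overlap, but 0 reads in sham replicate 2 allow a level of up to 13.6, above every TAC value. The level in TAC replicate 2 is 1 read. The ends of the circle matched no single annotated transcript, so no exon ranks are given. The edgeR log2 difference was 4.12 ± 1.19 (SE), with an adjusted p of 0.0152. It was lost without sham replicate 4 or TAC replicate 1, 3 or 4, at adjusted p of 0.0611 to 0.0881.

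The Dysf circle of exons 31 to 40 had levels of 3.03, 18.2, 0 and 0.584 in sham, and 14.9, 23.1, 18.5 and 15.9 in TAC. All TAC libraries were above 3 sham libraries, and sham replicate 2 lay inside the TAC range. With a log2 difference of 2.64 ± 0.815 (SE), edgeR gave an adjusted p of 0.0199. The call held only without sham replicate 2 or TAC replicate 2, and the adjusted p reached 0.282 without sham replicate 3.

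The Insr circle of exons 11 to 20, from the insulin receptor gene, had levels of 3.03, 0, 0 and 0 in sham and 8.92, 17.3, 7.21 and 4.45 in TAC. The values did not overlap, and the sham level rested on 8 reads in sham replicate 1. In sham replicate 2, 0 reads allow a level of up to 13.6, above the values of TAC replicates 1, 3 and 4. By edgeR the log2 difference was 2.66 ± 0.931 (SE), with an adjusted p of 0.0364. The call held without sham replicate 1 or 2, and ended without sham replicate 3 or 4 or TAC replicate 2, 3 or 4, and without both shallow libraries (adjusted p = 0.0877). Without TAC replicate 1 it was not tested.

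**Figure D5:**
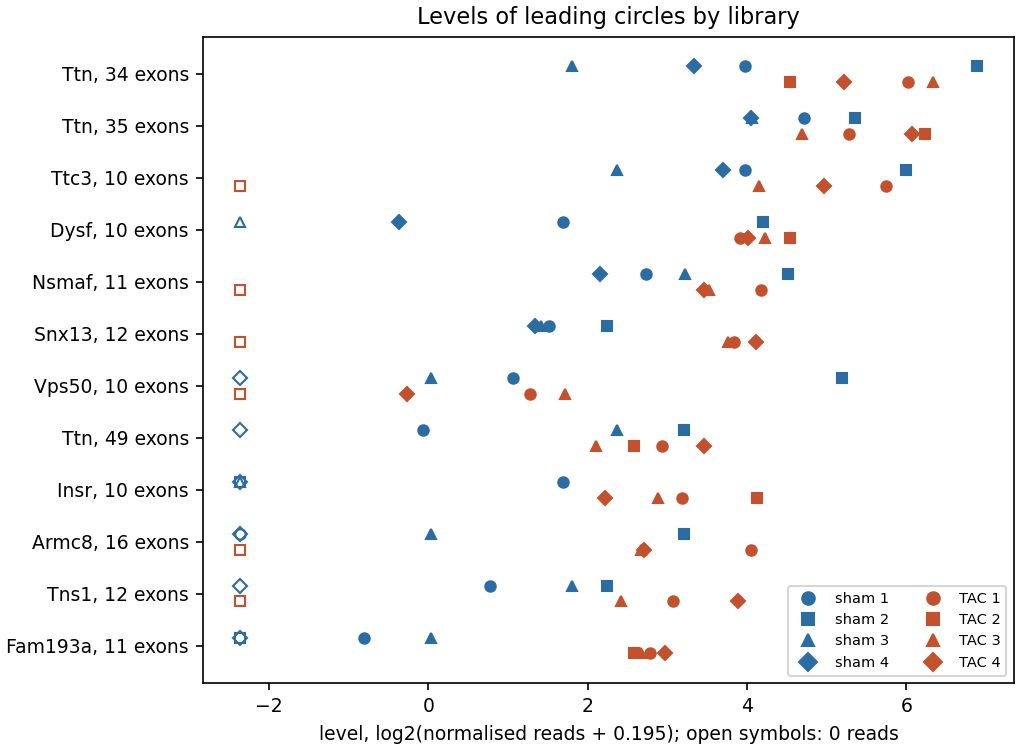
Level of the most abundant long circles named in the text and of the Fam193a circle in each library (x axis, log2 of normalised reads + 0.195, open symbols for 0 reads), with sham and TAC on separate rows and a symbol per replicate. The TAC values of Insr and Fam193a lie above all sham values, whereas those of Ttn, Ttc3 and Nsmaf overlap with them. Insr and Fam193a had 0 reads in sham replicate 2, where such a count allows a level of up to 13.6.

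The levels of the most abundant long circles overlapped between the groups over all 8 libraries. Those of Ttn at exons 85 to 118 had levels of 15.6, 118.1, 3.31 and 9.92 in sham and 64.7, 23.1, 80.3 and 36.9 in TAC, and those at exons 84 to 118 had 26.2, 40.9, 16.6 and 16.3 in sham and 38.7, 75.1, 25.7 and 66.8 in TAC, with edgeR adjusted p of 0.507 and 0.461. Without the 2 libraries under 5000 reads, the circle of exons 85 to 118 was called higher in TAC, with a log2 difference of 2.37 ± 0.511 (SE) and an adjusted p of 0.00364 by edgeR, and 2.81 ± 0.43 (SE) and 6.68e-09 by limma. That of exons 84 to 118 was not, at an adjusted p of 0.117 by edgeR and 0.0634 by limma. The limma errors follow the trend over all circles and not a circle's own spread between animals. Over all 8 libraries the limma adjusted p was 0.834 for exons 85 to 118 and 0.842 for exons 84 to 118. The ratio of the 2 circles, which share the end of exon 118, turned between libraries. In TAC replicates 1 and 3 and sham replicate 2 the circle from exon 85 had the higher level, and in the other 5 libraries the circle from exon 84 had.

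The Ttc3 circle of exons 2 to 11, from a ubiquitin ligase gene, was the leading circle of its host. Its levels were 15.6, 63.6, 4.97 and 12.8 in sham and 53.5, 0, 17.5 and 31.2 in TAC. The groups overlapped through sham replicate 2 and TAC replicate 2, the 2 shallow libraries, and not among the other libraries. Over all 8 libraries the edgeR log2 difference was 0.38 ± 0.759 (SE), with an adjusted p of 0.782. The Nsmaf circle of exons 20 to 30 had 6.45, 22.7, 9.11 and 4.28 in sham and 17.9, 0, 11.3 and 10.8 in TAC (edgeR adjusted p = 0.848). For these 2 circles limma gave log2 differences of -0.89 and -0.96 over all libraries, where TAC replicate 2 had no read, and edgeR positive ones. Without the 2 shallow libraries the limma differences turned to 1.61 (adjusted p = 0.00656) for Ttc3 and 1.02 (adjusted p = 0.188) for Nsmaf, with edgeR adjusted p of 0.053 and 0.201. The Snx13 circle of exons 4 to 15 was tighter in sham, at 2.65, 4.54, 2.48 and 2.34, and had 14.1, 0, 13.4 and 17.2 in TAC (edgeR log2 difference 2.01 ± 0.75 (SE), adjusted p = 0.0537). Without the 2 shallow libraries the Snx13 circle was called higher in TAC, with an adjusted p of 0.00278 by edgeR and 0.00118 by limma.

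The 9 circles found in 7 libraries were those of Ttc3, Dysf, Nsmaf and Snx13 above, the Ttn circle of exons 84 to 132, and circles of Fam208a, Kcnt2, Agtpbp1 and Mindy3. In 7 of the 9 the library without a read was TAC replicate 2. The exceptions were Dysf, absent in sham replicate 3, and the Ttn circle, absent in sham replicate 4. That Ttn circle had levels of 0.758, 9.09, 4.97 and 0 in sham and 7.44, 5.77, 4.12 and 10.8 in TAC (edgeR adjusted p = 0.193). The Kcnt2 circle of exons 4 to 13, from a sodium-activated potassium channel gene, had 2.65, 4.54, 0.828 and 2.72 in sham and 9.67, 0, 2.06 and 5.72 in TAC. The Tns1 circle of exons 7 to 18 was found in 6 libraries, with 1.52, 4.54, 3.31 and 0 in sham and 8.18, 0, 5.15 and 14.6 in TAC (edgeR adjusted p = 0.0702). The groups overlapped for each of these. Without the 2 shallow libraries the Tns1 circle was called higher in TAC (adjusted p = 0.0361 by edgeR and 0.00336 by limma), and the Ttn circle of exons 84 to 132 by limma alone (adjusted p = 0.013, against 0.0912 by edgeR).

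Circles whose fitted limma mean over all 8 libraries was lower in TAC were few, and none of them passed a test there. The Zfp638 circle of exons 3 to 20, from a zinc finger gene, had 0.379, 4.54, 1.66 and 1.95 in sham and 1.49, 0, 1.03 and 0 in TAC. The Mindy3 circle of exons 2 to 13, from a deubiquitinase gene, had 0.379, 4.54, 3.31 and 4.86 in sham and 0.744, 0, 1.03 and 3.82 in TAC. The Agtpbp1 circle of exons 2 to 12 had 0.758, 13.6, 0.828 and 3.50 in sham and 2.23, 0, 1.03 and 1.91 in TAC. By limma their log2 differences were -1.78, -1.44 and -1.34, with unadjusted p of 0.244, 0.370 and 0.404, and the groups overlapped. Each had no read in TAC replicate 2. Without the 2 shallow libraries the limma differences were -0.835 for Zfp638 and -0.381 for Mindy3, and that of Agtpbp1 turned to 0.264.

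Of the 85 tested circles, 2 had no read in any sham library. The Ttn circle of exons 85 to 132 had levels of 4.46, 11.6, 2.06 and 0.636 in TAC replicates 1 to 4, and the Fndc3a circle of exons 6 to 16 had 0.744, 5.77, 1.03 and 1.91. With 1 to 6 reads per TAC library, neither passed limma, at an adjusted p of 0.834 for both, and no fold is given. A circle without a sham read enters this test only when all 4 TAC libraries hold it, so nothing is read from its direction. In sham replicate 2, 0 reads also allow a level of up to 13.6, above every TAC level of these circles.

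Some long circles had most of their level in 1 library. The Vps50 circle of exons 8 to 17, from an endosomal recycling gene, had 36.3 in sham replicate 2, from 8 reads, and at most 3.09 in any other. The Lrba circle of exons 5 to 36 and the Chd9 circle of exons 11 to 26 each had 27.3 there, from 6 reads, and at most 1.49 and 0.744 elsewhere. The Xrn2 circle of exons 4 to 13 was seen only there, with 5 reads. The Hadhb circle of exons 2 to 12 had 11 reads in sham replicate 4 and none elsewhere.

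The long circles of each host were also summed and tested. limma called 0 of 104 host sums of long circles and 1 of all 2971 sums tested (0.0337%). At an unadjusted p under 0.05 there were 8 of the 104, against 95 of the 2971. edgeR called 9 of 18 higher and 0 lower, where 3.71% of all 998 sums were called higher. The limit of its filter holds here too, so nothing is read from the direction of this count. Among the 9 were Armc8, Fam193a, Dysf, Ryr2, Clasp1, Insr, Tns1 and Snx13. Apart from Armc8, each of these calls was lost when sham replicate 4 or TAC replicate 3 was left out, and, where the sum was still tested, when TAC replicate 1 or 4 was. The call held in 4 of 8 fits for Fam193a, in 3 of 8 for Dysf, Tns1 and Snx13, in 2 of 8 for Ryr2, and in 2 of 7 for Clasp1 and Insr. Insr was also lost without both shallow libraries (adjusted p = 0.0995). Without the libraries under 5000 reads limma called 20 of 83 sums, all higher, where 9.67% of all sums were called higher.

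The 5 long Armc8 circles summed to 0, 13.6, 0.828 and 0 in sham and 25.3, 0, 14.4 and 10.2 in TAC (edgeR log2 difference 4.09 ± 0.873 (SE), adjusted p = 0.000607). This edgeR call held in all 8 fits with 1 library left out, with adjusted p up to 0.0323. Neither DESeq2 (adjusted p = 0.388) nor limma (adjusted p = 0.9995) called the Armc8 sum. The groups overlapped, through sham replicate 2 and TAC replicate 2. The 41 long Ryr2 circles summed to 1.90, 22.7, 0.828 and 0.778 in sham and 23.1, 11.6, 12.4 and 10.8 in TAC. The edgeR log2 difference for Ryr2 was 2.30 ± 0.722 (SE), adjusted p = 0.0293. The 73 of Ttn summed to 45.5, 209, 27.3 and 26.3 in sham and 162.8, 115.5, 166.7 and 148.8 in TAC (edgeR log2 difference 0.90 ± 0.668 (SE), adjusted p = 0.433). For Ttn, 3 sham hearts were below every TAC heart and sham replicate 2 was above the highest.

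Gene lists of heart biology held long circles in unequal numbers. Sarcomere and Z-disc genes gave 105 circles with 1061 reads from 9 of 33 genes, 19.2% of all reads of the class, most of them from Ttn. In this list limma tested 11 and called 0, with a positive difference for 11, where 73 of all 85 long circles tested had one. Some of the 11 are Ttn circles that share ends, and nothing is read from their signs. Calcium handling and ion channel genes gave 89 circles with 219 reads from 12 of 32 genes, with 3 tested by limma and 0 called. Intercalated disc, costamere and membrane skeleton genes gave 61 circles with 213 reads from 14 of 33, and edgeR called the 1 it tested, that of Dysf. Hypertrophic signalling genes gave 25 circles with 108 reads from 12 of 32, and edgeR called the 1 it tested, that of Insr. Over all circles tested edgeR called 7.39% higher, and a single tested circle does not describe its list.

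Other lists were sparse. Ubiquitin and autophagy genes gave 47 circles with 79 reads, cytoskeletal motor and transport genes 45 with 84, chromatin regulators 34 with 66, and RNA-binding and splicing factors 12 with 31. Extracellular matrix and TGF-beta genes gave 17 circles with 18 reads. Fatty acid and mitochondrial genes gave 14 with 26 reads. In none of these 6 lists did edgeR have a long circle to test, and limma called 0 of the 4 it tested.

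The circles with the most exons were rare. Ttn supplied those of 139, 101, 100 and 92 exons and Ryr2 one of 74, exons 11 to 84 of 105, and each had 1 read in 1 TAC library. The Ttn circle of exons 118 to 256, the longest of all by spliced length at 28803 nt, began at the exon that ended the 2 most abundant long Ttn circles. The most exons seen in a library were 67, 57, 54 and 46 in sham replicates 1 to 4 and 101, 49, 100 and 139 in TAC replicates 1 to 4.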

How the data were processed

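One table of circles for all 8 libraries was used. The authors deposited a normalised signal, in which the junction reads of a circle are scaled by a size factor that is constant within a library. All values became whole reads (100% within 0.001) when multiplied back, so reads were recovered. Per the submitters' processing notes, mm10, HISAT2, StringTie and DESeq2 were used, without roles or versions; for the circle caller, any exonuclease step and repeated exons, nothing was given in the sources used here. Molecule and kit are those of the labels (total RNA). Starts were shifted by 1 base to match GENCODE M21 borders, and 99.4% of long circles matched. One host name was damaged into a date form.

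The main test was limma 3.58.1 with an intensity trend on log2(value + 0.195) for circles above 0 in at least 4 libraries. Its prior degrees of freedom were infinite, so its errors follow the trend and not a circle's own spread. edgeR 4.0.16 (TMM, filterByExpr with a minimum count of 5 and total of 15) and DESeq2 1.42.0 ran on the recovered reads. The SE given with an edgeR log2 difference is the size of that difference divided by the square root of its F statistic. P-values were Benjamini-Hochberg adjusted over all features, at 0.05. Library measures used exact two-sided permutation tests in scipy 1.17.1, whose smallest p for 4 against 4 is 0.0286. The scripts were tested on simulated data. Named circles are those past 0.05 in a tool, those with the smallest limma p, highest mean, most exons, widest span or most libraries, and the top circle of each list. The members, lists and rules were chosen with earlier results of these data known. Leaving out libraries under edgeR, and the length and exon-class checks, were chosen after seeing the data. One result is not reported here.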

Additional observations from a re-analysis of the deposited data

Results flagged for a closer look

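For normally distributed values, chance alone puts about 1 in 20 groups of 4 past the limit for a value far from its group. In all, 32 groups were examined, and many hold sparse counts, for which that rate need not apply. A group with reads in 1 library alone passes the limit by construction, so the number of flags is not set against that rate. Sham replicate 2 stood apart in its group in the share of reads in long circles (6.06%), in their number at equal depth (46.8) and in their share within hosts (15.9%). It also stood apart in the level of the circles of Ttn with 34 exons (118.1), Vps50 (36.3), Dysf (18.2), Armc8 (9.09) and Snx13 (4.54). The last level is 1 read in that library. Sham replicate 1 stood apart in the Insr circle (3.03), where the other 3 sham libraries had no read. TAC replicate 2 stood apart in the share of long circles among circles over 1000 nt (51.0%). Depth was 3926 reads in sham replicate 2 and 1100 in TAC replicate 2, and its part in these values was not tested.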

How the results depend on the processing

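The 3 library measures kept their direction under every alternative run. Their p stayed above 0.05, which with a library left out was fixed by the design, since 3 against 4 cannot go below 0.0571 nor 3 against 3 below 0.1. The count of long circles called by limma was 0 at the other pseudocount, filters, TMM scaling and every single library left out, 11 without the 2 libraries under 5000 reads, 1 by DESeq2 and 5 by edgeR. The edgeR count ran from 0 to 9 with 1 library left out, and was 9 without both shallow libraries. For host sums, limma called 0 to 1 with 1 library left out, 20 without the shallow ones, 1 by DESeq2 and 9 by edgeR, and the edgeR count ran from 2 to 14 with 1 library left out. The share of long circles among circles over 1000 nt was 1.09 points higher in TAC, ran from -4.35 (TAC replicate 2 left out) to 3.56 (TAC replicate 1 left out) and was -0.874 with sham replicate 4 left out. It was -3.14 when both shallow libraries were dropped. The cause was not tested. No paired analysis was possible because the labels give no number that sham and TAC samples share. Depth limits what the 2 shallow libraries show, since 73 of 85 tested circles were at 0 in TAC replicate 2.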
